A study of Homo sapiens with 8 samples.

Results

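The cell-surface death receptors of the tumour necrosis factor (TNF) receptor family and the proteins that join them in the death-inducing signalling complex were followed in HepG2 cells given benzo[a]pyrene (BaP). The 10 genes were chosen by name, with earlier results of these data known. The receptors are FAS, the TRAIL receptors TNFRSF10A (DR4) and TNFRSF10B (DR5), and the TNF receptor TNFRSF1A (TNFR1). The decoy receptors are TNFRSF10C (DcR1), TNFRSF10D (DcR2) and TNFRSF6B (DcR3). The other members are the adaptor FADD, the initiator caspase CASP8 and its inhibitor CFLAR (c-FLIP). The members were 10 of 49733 gene IDs, and all 10 were among the 14746 genes with enough counts to be tested, TNFRSF6B with only 25 counts over all libraries (8, 9 and 8 in 3 libraries and 0 in the other 5). HepG2 is a human hepatocellular carcinoma cell line, and BaP is a polycyclic aromatic hydrocarbon that binds the aryl hydrocarbon receptor and is metabolised to DNA-damaging products. Poly-A RNA was sequenced from cells given 2 µM BaP for 12 h (BaP 12 h) or 24 h (BaP 24 h) and from cells given the vehicle, 0.5% DMSO, for 12 h (vehicle 12 h) or 24 h (vehicle 24 h), with 2 libraries in each group from independent experiments. The labels name DMSO as the vehicle of the BaP cells as well and give no percentage for them. All 4 groups are the same cell line, so the values describe 1 tumour line in culture.

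When a ligand binds FAS or a TRAIL receptor, the receptor recruits FADD through a death domain, and FADD recruits CASP8 through death effector domains, where the caspase activates itself. TNFRSF1A builds its complex through the adaptor TRADD first. Decoy receptors bind the ligands but lack a working death domain or a membrane anchor, and CFLAR takes the place of CASP8 in the complex; hepatocytes are known for their sensitivity to FAS ligand, and FAS and TNFRSF10B are known targets of the transcription factor p53.

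Counts per library totalled 2592234 to 16533392, and the shallowest was library 1 of BaP 24 h. The 10 genes took 0.0436% to 0.0530% of all counts in the 4 BaP libraries and 0.0377% to 0.0391% in the 4 vehicle libraries. Most of these counts belonged to TNFRSF1A (14355 over all libraries) and TNFRSF10B (11284), so the share mainly describes those genes. CYP1A1, the BaP-metabolising enzyme induced through the aryl hydrocarbon receptor, had 306 to 1060 CPM (counts per 1e6 counts, scaled for depth and composition) with BaP and 1.5 to 6.57 with vehicle. CDKN1A, the p53-induced cell cycle inhibitor, had 369 to 451 CPM with BaP and 81.7 to 120 with vehicle. The 8 hepatocyte markers were present in all libraries and summed to 16995 to 30352 CPM. This sum was lower with BaP than with vehicle at each time. Only 1 of the 8 was called lower and 0 higher at each time, with median log2 fold changes of -0.15 at 12 h and -0.23 at 24 h. Of the 5 leukocyte markers, which summed to 551 to 988 CPM, CD3E was at 0 in all libraries and PTPRC reached at most 0.188 CPM. LYZ held 509 to 949 CPM, CD68 36.2 to 56.1 and CD14 1.47 to 7.13. With BaP, CD14 was higher at 12 h, and CD14 and CD68 at 24 h. The 4 fibroblast markers summed to 56.3 to 83.1 CPM in the other groups and to 103 and 104 at BaP 24 h, where ACTA2 was higher, with DCN at 0 in all libraries and COL1A2 at most 0.375 CPM. The 2 endothelial markers summed to at most 3.19 CPM. The part of these markers in the results was not tested. In such bulk RNA a lower level in every cell and a smaller number of expressing cells cannot be told apart.

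Before the values, the stretches of sequence that separate the forms of these genes are shown, taken by coordinate from GENCODE 29 (GRCh38), because RNA of FAS and of CFLAR can encode proteins that differ in their working parts. FAS lies on chromosome 10 (88990582 to 89015785, + strand), and its exon 6 (chr10:89010753-89010815, coding, 63 bases, 21 codons) encodes the segment that spans the membrane. Without that segment FAS cannot anchor in the membrane, and the coding transcript that skips the exon in frame, FAS-205 (314 codons), encodes a soluble FAS.
FAS exon 6: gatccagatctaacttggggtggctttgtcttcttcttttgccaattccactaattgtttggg
CFLAR lies on chromosome 2 (201116104 to 201176687, + strand). The long protein of 480 residues keeps a caspase-like end that is enzymatically dead, and shorter proteins stop after the death effector domains. The last 30 bases of 3 of its reading frames are given with the stop codon in capitals. CFLAR-208 encodes the long protein (chr2:201163944-201163973), CFLAR-203 encodes 221 residues (chr2:201141404-201141433), and CFLAR-206 encodes 250 residues (chr2:201136398-201136427).
CFLAR-208: agaaagaaacttatcctctcctacacaTAA
CFLAR-203: ctgaaaattcttggaaattgttccatgTGA
CFLAR-206: ggacattcaggggttttgcatgtatgcTGA
CFLAR-203 shared its first 202 residues with the long protein and then had 19 of its own. CFLAR-206 shared 174 and then had 76 of its own.

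FAS, the receptor of FAS ligand, was higher with BaP at both times. At 12 h the libraries held 19.6 and 18.2 CPM with BaP against 6.86 and 6.22 with vehicle. At 24 h they held 12.8 and 14.0 CPM with BaP against 6.28 and 5.25 with vehicle. All 4 BaP libraries lay above all 4 vehicle libraries. The increase was 2.88-fold at 12 h (log2 fold change 1.53 ± 0.17 SE, edgeR adjusted p = 1.8e-05) and 2.31-fold at 24 h (1.21 ± 0.20, edgeR adjusted p = 0.0020). At 12 h FAS passed the test in every alternative run, whereas at 24 h it missed it without library 2 of BaP 24 h (1.11, edgeR adjusted p = 0.066). The difference between the times did not pass the test (24 h minus 12 h, -0.32 ± 0.27, edgeR adjusted p = 0.76).

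At 12 h, 3 of the 10 genes rose (FAS, TNFRSF10A and TNFRSF1A) and 0 fell, where 3.41% of all tested genes rose and 4.84% fell, 8.25% in either direction. At 24 h, 3 rose (FAS, TNFRSF10A and TNFRSF10D) and 0 fell, where 3.11% of all genes rose and 2.2% fell, 5.3% in either direction. The median log2 fold change of the 10 genes was 0.27 at 12 h and 0.40 at 24 h, against 0.015 and 0.0059 over all tested genes. The 2 BaP libraries lay above the 2 vehicle libraries for 6 of the 10 genes and below for 1 at each time, where 25.4% and 23.9% of all genes did so at 12 h and 23.2% and 24% at 24 h. Leaving out 1 library moved the number that rose between 1 and 5 at 12 h and between 0 and 4 at 24 h. It was 1 at 12 h without library 1 of BaP 12 h or library 2 of vehicle 12 h, and 5 without either BaP 24 h library, when TNFRSF10B and CASP8 passed as well. At 24 h it was 0 without library 2 of BaP 24 h and 1 without either vehicle 24 h library.

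**Figure D1:**
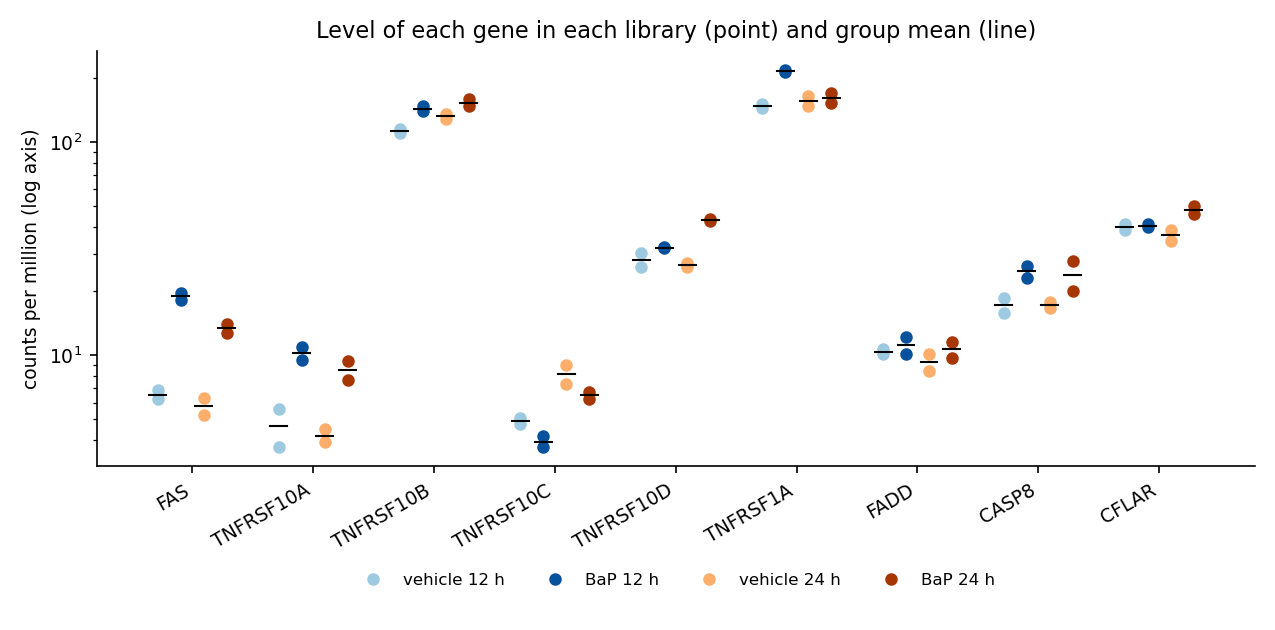
CPM (log axis) of 9 genes in each library (points) with the mean of each group (lines); TNFRSF6B is left out because 5 libraries hold no count. The 4 BaP points all lie above the 4 vehicle points for FAS, TNFRSF10A, TNFRSF10B, TNFRSF10D and CASP8. The gap is widest for FAS (12.8 to 19.6 against 5.25 to 6.86), followed by TNFRSF10A, and small for the others. The share of all genes that do so was not computed.

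TNFRSF10A and TNFRSF10B are the TRAIL receptors that carry a death domain. TNFRSF10A held 10.9 and 9.54 CPM at BaP 12 h against 5.61 and 3.70 at vehicle 12 h. The 24 h libraries held 9.38 and 7.63 CPM with BaP against 3.91 and 4.50 with vehicle. The groups did not overlap at either time, and TNFRSF10A rose 2.19-fold at 12 h (1.13 ± 0.23, edgeR adjusted p = 0.0045) and 1.97-fold at 24 h (0.98 ± 0.27, edgeR adjusted p = 0.046). These calls rested on few counts, 94 and 124 in the BaP 12 h libraries and 25 and 114 in the BaP 24 h libraries. The 12 h call was lost when all libraries were thinned to the depth of the shallowest (0.78, adjusted p = 0.20), without library 1 of BaP 12 h (adjusted p = 0.071) and without library 2 of vehicle 12 h (0.056). The 24 h call was lost in 8 alternatives, among them the DESeq2 Wald test (0.98, adjusted p = 0.16) and the fit of the 24 h libraries alone (0.97, edgeR adjusted p = 0.074), and without vehicle 24 h library 1 the edgeR adjusted p was 0.35.

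TNFRSF10B was the more abundant of the pair. It held 140.3 and 147 CPM at BaP 12 h against 110.2 and 116 at vehicle 12 h, and 147 and 159.7 at BaP 24 h against 128 and 136 at vehicle 24 h. The BaP libraries lay above the vehicle libraries at each time, by 1.27-fold at 12 h (0.35 ± 0.11, edgeR adjusted p = 0.060) and 1.17-fold at 24 h (0.22 ± 0.11, edgeR adjusted p = 0.28), and neither difference passed the test. At 12 h it passed in a fit of the 12 h libraries alone (0.33, edgeR adjusted p = 0.044), without library 1 of BaP 24 h (0.027) and without library 2 of BaP 24 h (0.019). TNFRSF10B-201, which encodes 440 residues, held 90.2% of the counts of the gene (82.9% to 96.1% per library), and TNFRSF10B-202, which encodes 411, held 9.78%.

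The decoy receptors TNFRSF10C and TNFRSF10D lie with TNFRSF10A and TNFRSF10B in a cluster on chromosome 8 (23020133 to 23225126). TNFRSF10D, whose death domain is truncated, held 32.1 and 31.8 CPM at BaP 12 h against 30.1 and 25.9 at vehicle 12 h, a log2 fold change of 0.19 ± 0.13 (edgeR adjusted p = 0.48). The 24 h libraries of TNFRSF10D held 43.5 and 42.7 CPM with BaP against 26.1 and 27.2 with vehicle. It rose 1.62-fold at 24 h (0.70 ± 0.14, edgeR adjusted p = 0.0078), and this call was lost without library 2 of BaP 24 h (adjusted p = 0.055), vehicle 24 h library 1 (0.14) or vehicle 24 h library 2 (0.063). The difference between the times was 0.50 ± 0.19 (unadjusted p = 0.017, edgeR adjusted p = 0.37), so a later response of TNFRSF10D was not shown.

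TNFRSF10C, the decoy held to the membrane by a lipid anchor, held 4.18 and 3.69 CPM at BaP 12 h, 5.09 and 4.75 at vehicle 12 h, 6.75 and 6.22 at BaP 24 h and 9.0 and 7.31 at vehicle 24 h. The BaP libraries lay below the vehicle libraries at each time, with log2 fold changes of -0.33 ± 0.23 and -0.38 ± 0.23 (edgeR adjusted p = 0.50 and 0.38). These values say little about the decoy protein. One transcript, ENST00000397703, held 88.3% of the counts given to this gene ID (81.2% to 93.5% per library), and GENCODE 29 places that transcript in another gene, the long non-coding RNA AC107959.4 (23084355 to 23103558 on chromosome 8, + strand). Of the windows of 36 bases in the coding transcript TNFRSF10C-201, 28.4% also occur in ENST00000397703. The remaining transcripts of the gene ID held 3.24 and 4.41 counts in the BaP 12 h libraries, 1.17 and 6.24 in BaP 24 h, 12.94 and 10.71 in vehicle 12 h and 12.02 and 5.24 in vehicle 24 h. Per length these remaining transcripts stood at 0.301 to 0.408 TPM (transcripts per 1e6 transcripts) in the BaP libraries and 0.648 to 0.898 in the vehicle libraries, which is a description of estimates from at most 13 counts and was not tested.

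TRAIL receptor RNA as a whole can be compared between genes only per length, in TPM. Summed over the 4 genes it came to 66.1 and 72.6 TPM at BaP 12 h, 77.8 and 57.6 at BaP 24 h, 52.5 and 51.1 at vehicle 12 h and 60.3 and 55.0 at vehicle 24 h. TNFRSF10B made up 66.3% to 73.8% of that sum in every library. TNFRSF10A made up 4.84% to 7.55% with BaP and 2.89% to 4.86% with vehicle. The 2 decoys together made up 22.6% and 20.1% at BaP 12 h, 28.1% and 28.5% at BaP 24 h, 28.7% and 25.2% at vehicle 12 h and 28.7% and 27.1% at vehicle 24 h. The decoy share was thus lower in both BaP 12 h libraries than in any other library, and at 24 h the groups overlapped. With 2 libraries against 2 an exact two-sided permutation test cannot go below p = 0.333, so no test is given. Counting TNFRSF10C less the reassigned transcript, a choice made after the data were seen, the shares were 17.7% and 16.1%, 21.4% and 22.1%, 22.5% and 19.0%, and 17.9% and 18.4% in the same order, and the 24 h groups then no longer overlapped, with BaP the higher.

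**Figure D2:**
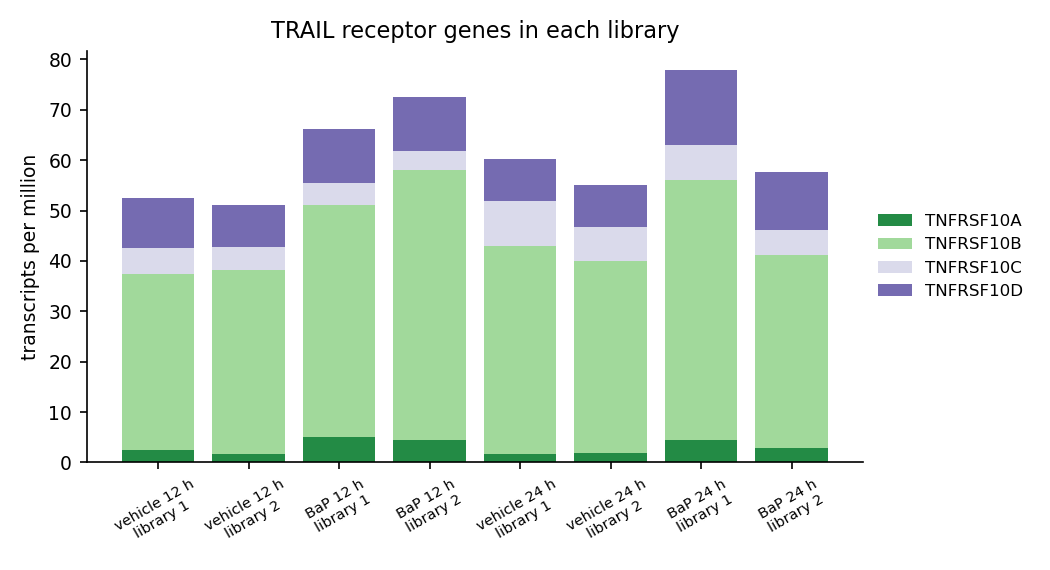
TPM of the 4 TRAIL receptor genes, stacked, in each of the 8 libraries. TNFRSF10B makes up most of every bar (66.3% to 73.8%), and the TNFRSF10C segment is mostly a transcript that GENCODE 29 places in a non-coding gene.

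TNFRSF6B, a soluble decoy that binds FAS ligand, was listed at 8 and 9 counts in the BaP 24 h libraries, 8 in library 2 of vehicle 24 h and 0 in the other 5. No fold or floor is given, because all 1106 windows of 36 bases in its transcript (100%) also occur in the read-through gene RTEL1-TNFRSF6B, which contains it (chromosome 20, 63696651 to 63698684 within 63659300 to 63698684, + strand). The counts of TNFRSF6B therefore depend on how RSEM divided shared reads, and its level cannot be told from them. RSEM's posterior means gave 0.404 TPM at BaP 12 h and 0.372 at vehicle 12 h, where the maximum likelihood estimates were 0, and 0.702 and 0.567 at BaP 24 h and vehicle 24 h. RTEL1 matched no gene ID of its own here, so its reads may be counted under the ID of RTEL1-TNFRSF6B. That ID held 48.8 and 40.7 CPM at BaP 24 h against 62.7 and 58.7 at vehicle 24 h. It fell by 0.48 ± 0.13 on the log2 scale (edgeR adjusted p = 0.046), a call lost in 10 of 16 alternatives, among them DESeq2 (0.091), the fit with the replicate block (0.058) and the fits without any 1 of 5 libraries (both of BaP 12 h, both of vehicle 24 h, and library 2 of BaP 24 h; edgeR adjusted p up to 0.43).

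TNFRSF1A, the main receptor of TNF, was the most abundant of the 10 genes per length. It held 213 and 219 CPM at BaP 12 h against 151 and 144 at vehicle 12 h, and the groups did not overlap. In the 24 h groups TNFRSF1A held 153 and 170 CPM with BaP against 147 and 165 with vehicle, and the groups overlapped. TNFRSF1A rose 1.46-fold at 12 h (0.55 ± 0.11, edgeR adjusted p = 0.0058), and at 24 h its log2 fold change was 0.06 ± 0.12 (edgeR adjusted p = 0.84). The 12 h call was lost without library 1 of BaP 12 h (adjusted p = 0.069), library 2 of BaP 12 h (0.094) or library 2 of vehicle 12 h (0.061), with the log2 fold change between 0.49 and 0.59 over the 8 fits that leave out 1 library. The difference between the times was -0.49 ± 0.16, with an unadjusted p of 0.0087 and an edgeR adjusted p of 0.28.

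FADD, CASP8 and CFLAR, which meet below the receptors, did not pass the test at either time. FADD held 10.1 and 12.2 CPM at BaP 12 h against 10.7 and 10.1 at vehicle 12 h, and 9.75 and 11.6 at BaP 24 h against 10.1 and 8.44 at vehicle 24 h. Its groups overlapped at both times (0.11 ± 0.18 and 0.23 ± 0.20, edgeR adjusted p = 0.82 and 0.58). CASP8 held 23.1 and 26.3 CPM at BaP 12 h against 15.8 and 18.7 at vehicle 12 h. At 24 h it held 27.8 and 20.002 CPM with BaP against 17.7 and 16.7 with vehicle. The BaP libraries of CASP8 lay above the vehicle libraries at both times, by 1.44-fold (0.53 ± 0.16, edgeR adjusted p = 0.062) and 1.31-fold (0.39 ± 0.18, edgeR adjusted p = 0.25). The 12 h difference of CASP8 passed in 5 alternatives, with adjusted p of 0.018 to 0.040: no filter on low counts, edgeR's exact test, the fit of the 12 h libraries alone, and the fits without library 1 or without library 2 of BaP 24 h.

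CFLAR held 41.4 and 39.8 CPM at BaP 12 h against 38.7 and 41.2 at vehicle 12 h, with overlapping groups (0.02 ± 0.12, edgeR adjusted p = 0.96). At 24 h it held 46.1 and 50.1 CPM with BaP against 34.2 and 38.8 with vehicle, 1.34-fold higher and not overlapping (0.42 ± 0.13, edgeR adjusted p = 0.078). It passed the test at 24 h without library 1 of BaP 24 h (0.46, edgeR adjusted p = 0.033). The ratio of CFLAR to CASP8 in TPM was 1.97 and 1.74 at BaP 12 h against 2.44 and 2.20 at vehicle 12 h, and the groups did not overlap. At 24 h it was 1.54 and 3.73 with BaP against 2.57 and 2.25 with vehicle, and the BaP libraries lay on either side of the vehicle libraries. This ratio was not tested. CASP8 in TPM rests on how RSEM divided counts among its transcripts, whose shares ranged widely between libraries.

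**Figure D3:**
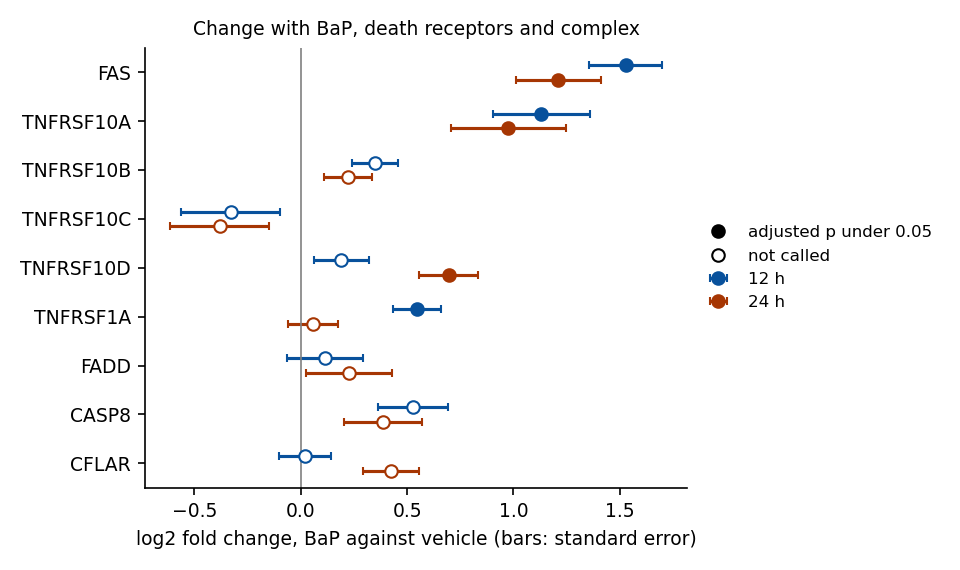
Log2 fold change of BaP against vehicle at 12 h (blue) and 24 h (brown) for 9 genes, with the standard error as bars; filled points passed the edgeR test at an adjusted p of 0.05. FAS stands highest at both times (1.53 and 1.21), TNFRSF1A is filled at 12 h and TNFRSF10D at 24 h.

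None of the 10 genes passed the test of the difference between the times, where 0.461% of all genes were higher and 0.0814% lower at 24 h than at 12 h, 0.543% in either direction. In edgeR's quasi-likelihood test, 3 did so at an unadjusted p under 0.05: TNFRSF10D and CFLAR in one direction (0.50 ± 0.19 and 0.40 ± 0.18) and TNFRSF1A in the other. Between the vehicle groups, where 2.27% of all genes were higher at 24 h and 1.01% lower, 3.28% in either direction, 0 passed and 1 had an unadjusted p under 0.05. That gene was TNFRSF10C (0.75 ± 0.22, edgeR adjusted p = 0.073), which passed in edgeR's exact test (adjusted p = 0.045) and without library 1 or library 2 of BaP 24 h (0.048 for each); DESeq2 called 0.

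Per length, TNFRSF1A led at 74.8 to 123 TPM over the 8 libraries. TNFRSF10B followed at 34.9 to 53.5 TPM and CFLAR at 22.8 to 28.8, and these 3 ranges did not overlap. CASP8 (7.67 to 18.7), TNFRSF10D (8.24 to 14.9), FADD (5.06 to 8.20), FAS (2.50 to 12.7) and TNFRSF10C (3.79 to 8.83, mostly the reassigned transcript) came next. Neighbours in this order overlapped, except that TNFRSF10D lay just above FADD. TNFRSF10A stood at 1.63 to 4.99 TPM. These levels depended on the estimate, for TNFRSF1A and TNFRSF10B as well as for FAS. RSEM's posterior means put TNFRSF1A at 99.6 and 57.1 TPM with BaP (12 h and 24 h) and 72.7 and 64.5 with vehicle. They put TNFRSF10B at 41.6 and 31.2 TPM, and 32.2 and 32.0, in the same order. For both genes every group mean but that of BaP 12 h then lay below the range given above. With RSEM's posterior means in place of its maximum likelihood estimates, the FAS group means became 12.7 TPM at 12 h and 8.66 at 24 h with BaP, in place of 11.9 and 6.73, and 6.00 at 12 h and 5.92 at 24 h with vehicle, in place of 4.22 and 3.32.

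FAS RNA was mostly the form that anchors in the membrane. FAS-204, which encodes 335 residues and holds the exon printed above, took 81.0% of FAS counts (71.5% to 93.4% per library). All annotated transcripts with that exon together took 88.2%, and those that skip it took 0.772%, or 7.21 counts in all. Of these, 4.08 in library 2 of BaP 12 h belonged to FAS-210, annotated as a target of nonsense-mediated decay, and 3.13 in library 2 of BaP 24 h to FAS-205, the soluble form. A further 5.94% (55.49 counts) went to ENST00000371875, which has no model in GENCODE 29, so whether it holds the exon is not known here. It held 34.17 counts in library 2 of BaP 12 h (14.5% of FAS counts) and 21.18 in library 2 of BaP 24 h (10.1%). In each vehicle library it held 0. At this depth a change in the soluble form was not detectable, and FAS had too few transcripts with enough counts for a test of transcript usage. The start of FAS lies head to head with ACTA2 (chromosome 10, 88935074 to 88991339, - strand), and no source used here states whether counting used strand. No base of FAS-204 lies in an exon of ACTA2, while FAS-207, FAS-209 and FAS-201, with 5.08%, 0.375% and 3.12% of FAS counts, overlap ACTA2 exons by 380, 193 and 52 bases. ACTA2 itself held 47.9 and 46.5 CPM at BaP 12 h against 40.5 and 36.9 at vehicle 12 h (0.29 ± 0.12, edgeR adjusted p = 0.17) and rose at 24 h from 50.4 and 46.3 to 95.7 and 98.6 CPM (1.00 ± 0.12, edgeR adjusted p = 1.3e-04). Its difference between the times did not pass the test (0.72, edgeR adjusted p = 0.075), and the part of ACTA2 reads in the FAS counts was not tested.

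CFLAR RNA was divided among several forms. CFLAR-206 held 40.7% of the counts (35.5% to 49.1% per library) and CFLAR-203 25.0% (19.1% to 28.2%), while CFLAR-208 held 10.2% and CFLAR-201, which encodes the same 480 residues, 6.37%. The 4 transcripts that keep the caspase-like end took 20.9% of all CFLAR counts. The 5 that share at least the first 202 residues and then end otherwise took 31.4%. Among these 5, CFLAR-215 shares its first 435 of 462 residues with the long protein, so they are not all short forms. The other 10 with a coding model took 41.8%, most of it CFLAR-206, and the 10 without one 5.90%. These classes rest only on residues identical to the start or the end of the long protein. By library, those that keep the caspase-like end summed to 19.8% and 23.6% at BaP 12 h, 21.1% and 16.8% at BaP 24 h, 21.4% and 21.1% at vehicle 12 h and 24.0% and 23.1% at vehicle 24 h. At 24 h both BaP libraries lay below both vehicle libraries, and at 12 h they lay on either side of them. Usage of transcripts was tested for CFLAR (3 transcripts) and CASP8 (5 transcripts) and for none of the other 8 genes. Neither was called (CFLAR adjusted p = 1 at 12 h and 0.88 at 24 h, CASP8 1 and 0.92, edgeR's F-test per gene), where 0.307% of 6837 genes were called at 12 h and 0.907% at 24 h. The shares of single CASP8 transcripts ranged widely between libraries, from 0% to 40.2% for CASP8-208, so that they are not compared.

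**Figure D4:**
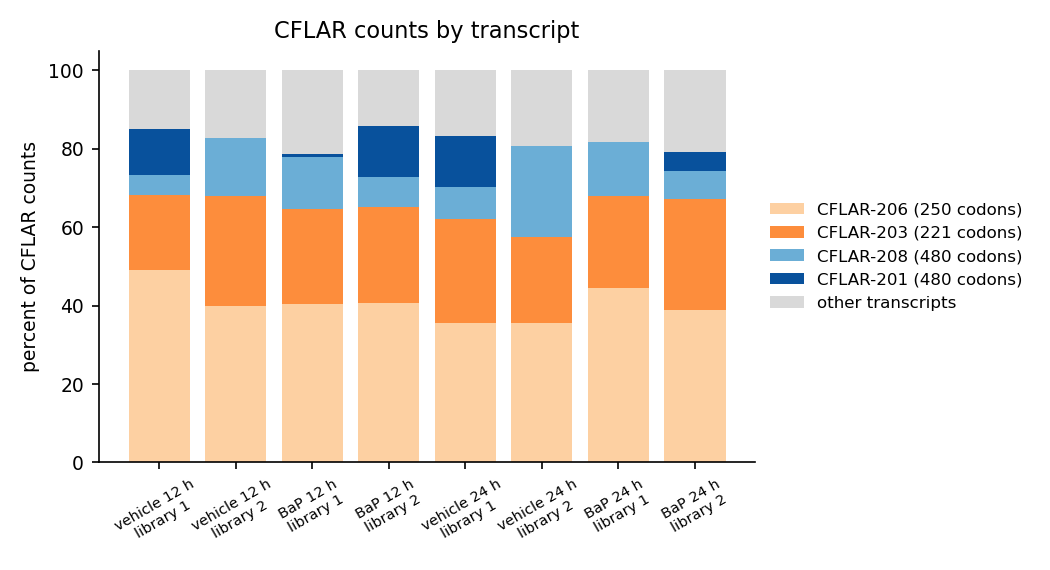
Percent of CFLAR counts by transcript in each library, with the number of codons of each reading frame in the key. CFLAR-206 and CFLAR-203, which both lack the caspase-like end, make up most of every bar, and the split between CFLAR-208 and CFLAR-201, which encode the same protein, varies from library to library.

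The RefSeq windows from 250 bases before to 50 after a start (GRCh38.p14) were found for 6 of the 10 genes and searched on both strands for 2 motifs. GCGTG, the core of the aryl hydrocarbon receptor element, occurs in 36.5% of 35116 such windows. It was found in 1 of 3 windows of FAS, 1 of 3 of CASP8, 2 of 4 of CFLAR and the window of TNFRSF6B, and in none of TNFRSF1A or FADD. The p53 decamer, the 10-base unit of p53 binding elements, occurs in 6.63% of all windows and in 1 of 3 windows each of FAS and CASP8. The stretch of FAS is shown because FAS rose most, with the decamer in capitals (chr10:88991303-88991332, + strand), and it lies in the intron after the first coding exon of FAS-204.
FAS intron stretch: actcctGGACAAGCCCtgacaagccaagcc
A match is a description of the letters, and binding was not measured.

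The genes whose profile over the 8 libraries was most like that of FAS were INKA2, GLA, BTG2, FOSL1 and CYP4F11, among genes with a mean of at least 5 CPM. Their root mean square difference from FAS, in log2 CPM after centring each gene, was 0.128, 0.139, 0.153, 0.153 and 0.182. Among the 10 genes themselves TNFRSF10A came nearest, at 0.254, and CASP8 (0.503), TNFRSF1A (0.546) and TNFRSF10D (0.568) stood farther off. Because the 5 genes were picked by their likeness to FAS in these same libraries, fold changes like its own follow from the choice. BTG2, an antiproliferative factor, had log2 fold changes of 1.41 ± 0.15 and 0.94 ± 0.17 at 12 h and 24 h. FOSL1, a subunit of the AP-1 transcription factor, had 1.60 ± 0.14 and 1.44 ± 0.15. Those of INKA2 were 1.45 ± 0.18 and 1.40 ± 0.21, of GLA 1.32 ± 0.15 and 1.12 ± 0.17, and of CYP4F11 1.76 ± 0.12 and 1.21 ± 0.13.

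The ligands were scarce. FASLG, the ligand of FAS, had 0 counts in all 8 libraries, which allows up to 0.201 to 1.13 CPM. TNF had 3 counts in all libraries together. TNFSF10 (TRAIL) had 200 counts and 1.54 to 3.94 CPM, and its log2 fold change was -0.78 ± 0.36 at 12 h (edgeR adjusted p = 0.24) and -0.74 ± 0.39 at 24 h (edgeR adjusted p = 0.30). Of the 6 ligands listed 2 were tested and 0 changed in any comparison.

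Around these receptors, 63 pathway genes were listed, 48 were tested, and 7 rose and 3 fell at 12 h, while 4 rose and 2 fell at 24 h. Over all tested genes 3.41% rose and 4.84% fell at 12 h, and 3.11% rose and 2.2% fell at 24 h. The median log2 fold change of the 48 was 0.17 at 12 h and 0.067 at 24 h. Of the 12 other TNF receptors tested, 5 rose and 1 fell at 12 h, and 3 rose and 1 fell at 24 h. EDA2R, the receptor of ectodysplasin A2, held 25.9 and 23.3 CPM at BaP 12 h against 11.7 and 15.7 at vehicle 12 h, and 28.5 and 27.8 at BaP 24 h against 15.6 and 13.9 at vehicle 24 h, with no overlap at either time. It rose at 12 h (0.84 ± 0.16, edgeR adjusted p = 0.0033) and at 24 h (0.91 ± 0.18, edgeR adjusted p = 0.0060). TNFRSF12A, the receptor of TWEAK, rose at both times (0.54 ± 0.13 and 0.61 ± 0.13), and TNFRSF19 (TROY) fell at both times (-0.91 ± 0.15 and -0.58 ± 0.16). At 12 h TNFRSF11A (RANK, 0.71), RELT (0.73) and LTBR, the lymphotoxin beta receptor (0.48), rose as well, and at 24 h TNFRSF14 (HVEM, 0.75). TNFRSF19 kept its 12 h call without any 1 library. EDA2R lost its 12 h call without library 1 of BaP 12 h (edgeR adjusted p = 0.058). The 12 h calls of TNFRSF12A, LTBR and RELT were lost without library 1 or library 2 of BaP 12 h or library 2 of vehicle 12 h (edgeR adjusted p 0.083 to 0.20), and that of TNFRSF11A without any 1 of the 12 h libraries (0.062 to 0.18).

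Among the proteins that act below the receptors, FAF1, a FAS-associated factor whose gene spans 523 kb, held 13.4 and 13.9 CPM at BaP 12 h against 32.9 and 33.0 at vehicle 12 h. It fell by 1.27 ± 0.14 on the log2 scale at 12 h (edgeR adjusted p = 1.3e-05), and at 24 h its libraries held 32.3 and 37.2 CPM with BaP against 33.9 and 36.004 with vehicle. DEDD2, a death effector domain protein (0.72 ± 0.13), and PEA15, a death effector domain protein that binds FADD and CASP8 (0.57 ± 0.11), rose at 12 h. TNFAIP3 (A20), a ubiquitin-editing inhibitor of TNF signalling, fell at both times (-0.50 ± 0.13 and -0.59 ± 0.13), and BID, the CASP8 substrate that links to mitochondria, rose at 24 h (0.60 ± 0.14). The initiator caspases CASP10, CASP2 and CASP9 did not pass in any comparison. Without 1 library, DEDD2 (0.067, library 1 of BaP 12 h) and PEA15 (0.086, library 2 of BaP 12 h) each lost the call, and TNFAIP3 lost it at 12 h without any 1 of the 12 h libraries (adjusted p up to 0.23). At 24 h the calls of EDA2R (up to 0.075) and TNFRSF14 (up to 0.24) were lost without either vehicle 24 h library, and that of TNFRSF12A without library 1 of vehicle 24 h (0.23). The 24 h calls of BID (up to 0.31) and TNFAIP3 (up to 0.19) were lost without library 2 of BaP 24 h or either vehicle 24 h library, and that of TNFRSF19 (up to 0.46) without any 1 library except library 1 of BaP 24 h. Between the vehicle groups TNFRSF14 (0.78 ± 0.18) and TNFAIP3 (0.78 ± 0.13) were higher at 24 h and TNFRSF11A (-0.80 ± 0.20) and PEA15 (-0.46 ± 0.12) lower. TNFAIP3 lost this call without library 2 of vehicle 24 h (0.080), TNFRSF14 without either vehicle 24 h library or library 2 of vehicle 12 h (up to 0.22), and TNFRSF11A (up to 0.39) and PEA15 (up to 0.33) without any 1 library except those of BaP 24 h.

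**Figure D5:**
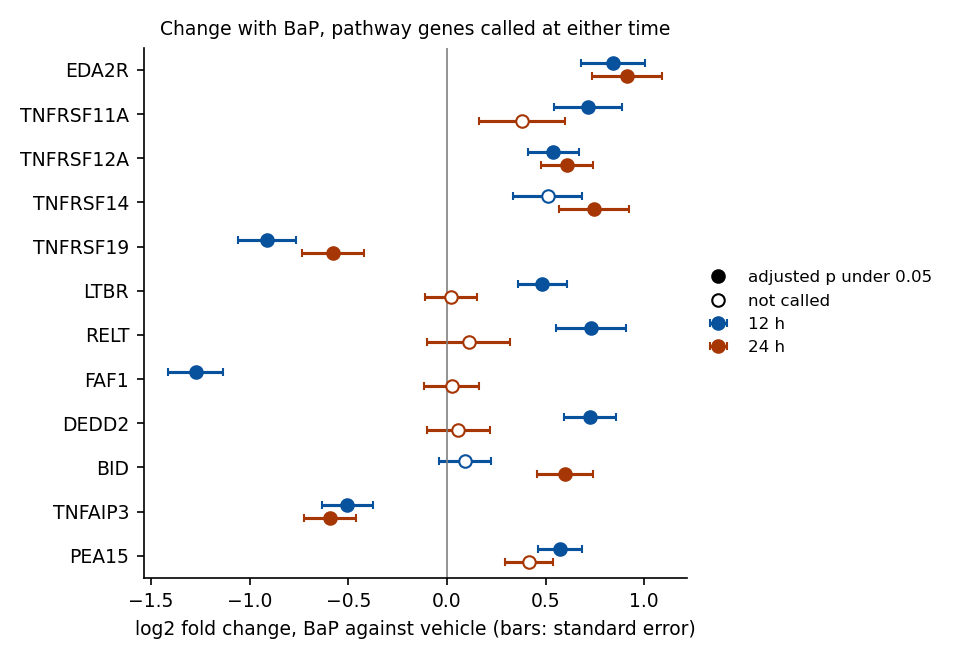
Log2 fold change of BaP against vehicle with its standard error for the 12 pathway genes called at 12 h (blue) or 24 h (brown); filled points passed the edgeR test. FAF1 is the lowest point, at -1.27 at 12 h, and lies near 0 at 24 h, while EDA2R and TNFRSF12A are filled to the right of 0 at both times.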

How the data were processed

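Poly-A RNA of 8 HepG2 libraries was analysed, 2 per group. The expected counts per gene and transcript are deposited as RSEM 1.1.7 made them, after Bowtie 0.12.7, per the submitters' processing notes, on Ensembl 58 IDs (genome build: not given in the sources used here). The deposited fractions, the authors' RSEM share of all transcripts, were multiplied to TPM.

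Counts were rounded and fitted in R 4.3.3 with edgeR 4.0.16: filterByExpr (minimum count 10, minimum total count 15), TMM scaling, a robust quasi-likelihood fit of all 8 libraries with 1 mean per group, two-sided tests, and Benjamini-Hochberg adjustment over 14746 genes at 0.05. SE is the fold change divided by the square root of F. Transcript usage used diffSpliceDGE on transcripts with at least 10% of a gene's counts. Both were also run on data simulated for the 12 h comparison only, where the usage simulation gave all transcripts the same fixed spread. The outcome is not given here, so no conclusion is drawn from it. Alternatives included DESeq2 1.42.0. Floors (3 counts) cover counting error only.

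The members and gene lists were chosen with earlier results of these data known. The text names the 10 members, listed pathway genes that passed a test, stated neighbours (RTEL1-TNFRSF6B was added after the files were seen), CYP1A1, CDKN1A and the 5 genes most like FAS. Promoters are from RefSeq.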

Additional observations from a re-analysis of the deposited data

Results flagged for a closer look

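FAF1, the FAS-associated factor, responded differently at the 2 times by the test of the difference itself: the log2 fold change with BaP was 1.30 ± 0.20 higher at 24 h than at 12 h (edgeR adjusted p = 0.0033). It was -1.27 ± 0.14 at 12 h, where both BaP libraries lay below both vehicle libraries, and at 24 h the groups overlapped (32.3 and 37.2 CPM with BaP, 33.9 and 36.004 with vehicle). The difference missed the threshold without library 1 of vehicle 24 h (1.24, edgeR adjusted p = 0.054).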

How the results depend on the processing

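Each group has 2 libraries, and library 1 of BaP 24 h holds 2592234 counts, which limits what can be detected in genes of few counts. No called result changed direction in any alternative run. FAS at 12 h kept its call in all 16 alternatives. The replicate numbers are shared by the groups, but the labels do not say that a number marks a shared experiment. The main fit therefore did not pair the samples. Differences between library 1 and library 2 correlated by 0.42 for the 12 h pair and 0.064 for the 24 h pair over 7299 genes. Between the times they correlated by -0.039 with vehicle and -0.24 with BaP. Whether the 12 h libraries are paired is not settled by these values. The replicate block used 1 term for both times, so it could not take up an effect of the 12 h libraries alone. With the replicate block 3 of the 10 genes rose at 12 h and 3 at 24 h, 511 and 431 of all genes rose, and 718 and 307 fell; usage calls fell to 2 genes at 12 h and 31 at 24 h.

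In place of 503 genes higher and 713 lower at 12 h, thinning gave 232 and 383, and DESeq2's Wald test gave 289 higher; leaving out 1 library gave 174 to 724 higher and 250 to 969 lower. In place of 458 higher and 324 lower at 24 h, thinning gave 228 and 164, the comparison's own libraries 235 and 144, DESeq2 303 higher and no filter 559 lower; leaving out 1 library gave 95 to 1230 and 74 to 726. In place of 68 higher and 12 lower for the difference between times, no filter gave 171 and 69 and thinning 33 and 6; leaving out 1 library gave 24 to 249 and 4 to 99. In place of 334 higher and 149 lower between the vehicle groups, the groups' own libraries gave 511 and 342, and 341 were lower with no filter, 72 with thinning and 271 with edgeR's exact test; leaving out 1 library gave 81 to 589 and 6 to 423.

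Of the 10 genes, 5 rose at 12 h in the fit of the 12 h libraries alone, and 1 to 5 when 1 library was left out; at 24 h it was 0 to 4. Between the vehicle groups 1 of the 10 was higher with no filter (TNFRSF6B) and 1 in edgeR's exact test (TNFRSF10C), and 0 to 1 when 1 library was left out. In place of 21 usage calls at 12 h and 62 at 24 h, the Simes test gave 12 and 22 and posterior mean counts 1 and 18; leaving out 1 library gave 17 to 52 and 46 to 632, and none of the 10 genes was called in any of these. The mean decoy share became 16.9% at BaP 12 h, 21.8% at BaP 24 h, 20.7% at vehicle 12 h and 18.1% at vehicle 24 h with TNFRSF10C less its reassigned transcript, and 28.8% at BaP 24 h with posterior mean fractions, in place of 21.3%, 28.3%, 27.0% and 27.9%; these 2 alternatives were chosen after the data were seen. The causes of these shifts were not tested.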
